A study of Papio hamadryas with 11 samples.

Results

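The miR-183 cluster is a group of 3 microRNA (miRNA) hairpins, miR-183, miR-96 and miR-182, made from 1 primary transcript. Its 6 mature arms were taken by name from the table of known miRNAs: hsa-miR-183-5p, hsa-miR-183-3p, hsa-miR-96-5p, hsa-miR-96-3p, hsa-miR-182-5p and hsa-miR-182-3p, out of 1921 mature names in all. Each of the 6 stood on 1 precursor row, so the rule of keeping the precursor row with the most reads dropped none of them. The prefix, which marks human names, is left off below. The cluster was chosen by the read counts of miR-183-5p and miR-182-5p in these livers, whose higher level after maternal obesity was already known. That difference is therefore given below as a description, without a p-value, and nothing is supported with it.

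The cluster is transcribed as a single RNA from which Drosha and Dicer cut the separate hairpins, and in each hairpin the 5p arm is the one mostly loaded into Argonaute. It is best known from sensory organs, where hair cells, photoreceptors and sensory neurons carry it at high levels and where mutations in the seed of miR-96 cause hearing loss in humans and mice. In human cancer cells miR-96 and miR-182 repress FOXO1, the insulin-regulated transcription factor that drives gluconeogenesis in liver, and all 3 miRNAs have been reported to be raised in human liver tumours.

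Small RNA was sequenced from livers of near-term baboon fetuses (Papio hamadryas, 0.9 of gestation), 5 from obese mothers (3 female, 2 male) and 6 from control mothers (3 female, 3 male). Replicates are named by number within each group, in the order of the library numbers in the sample titles. The labels describe separate samples without saying which animals or litters they came from, so every p-value refers to the spread among these samples. No allele, drug or other agent is given for either group, and how obesity was brought about is not given in the sources used here.

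Libraries of the obese-mother group held 660569 to 767137 reads on known miRNAs and those of the control-mother group 247288 to 319919. Library numbers also separate the groups (67 to 71 and 55 to 60), so maternal obesity, depth and any batch of libraries cannot be told apart. CPM stands for reads scaled to a common library size, here after TMM normalisation, which corrects library sizes for differences in composition. Hepatocyte miRNAs dominated both groups: the 7 on a hepatocyte list, miR-122-5p and miR-192-5p among them, summed to between 381350 and 507791 CPM in obese-mother livers and between 402310 and 545477 CPM in control-mother livers. Livers were sequenced whole, so fewer cells that carry a miRNA and less of it per cell cannot be told apart.

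The cluster was a minor component of the liver profile, and nearly all of it was miR-182-5p and miR-183-5p. The 6 arms together took 0.0306% to 0.0612% of the reads of an obese-mother library and 0.0104% to 0.0237% of the reads of a control-mother library. By mean level miR-182-5p ranked 96th among the 1921 names in obese-mother livers and 130th in control-mother livers. miR-183-5p ranked 178th and 255th in the same groups, and miR-96-5p 343rd and 358th. The order miR-182-5p above miR-183-5p above miR-96-5p held in each of the 11 libraries except control replicate 1, in which miR-183-5p and miR-96-5p had 2 reads each. Read counts of separate miRNAs also carry differences in how well each one is ligated and counted, so the order is one of reads.

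miR-183-5p, which shares much but not all of its seed with its neighbours, had 33, 38, 36, 39 and 57 reads in replicates 1 to 5 of the obese-mother group. In control-mother replicates 1 to 6 it had 2, 4, 5, 3, 10 and 6 reads. Scaled, these were 49.8, 50.1, 47.0, 52.9 and 89.5 CPM in obese-mother livers, against a lowest of 7.53, a median of 15.8 and a highest of 35.7 CPM in control-mother livers. All obese-mother livers therefore lay above all control-mother livers, with replicate 5 of the obese-mother group far above its group and control replicate 5 the highest of the controls. The gap is narrow beside the counting error: the exact Poisson 95% interval was 32.9 to 65.1 CPM for the lowest obese-mother liver and 17.1 to 65.7 CPM for the highest control-mother liver. The means were 57.9 ± 17.8 CPM (SD, n = 5) with obese mothers and 17.6 ± 9.84 CPM (SD, n = 6) with control mothers, a log2 fold change of 1.69 (SE 0.32) in the edgeR fit over all miRNAs.

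miR-182-5p, the most abundant arm and the one with the most precise values, had 185, 213, 199, 191 and 343 reads in obese-mother replicates 1 to 5. Control-mother replicates 1 to 6 had 35, 35, 63, 30, 51 and 25 reads. The levels were 279, 281, 260.0, 259 and 538 CPM in obese-mother livers, against a lowest of 81.0, a median of 130.4 and a highest of 212 CPM in control-mother livers. Again the groups did not overlap and replicate 5 of the obese-mother group stood alone, at about the summed level of 2 of its group mates. The mean was 324 ± 121 CPM (SD, n = 5) in obese-mother livers and 141.1 ± 48.0 CPM (SD, n = 6) in control-mother livers, a log2 fold change of 1.19 (SE 0.26). Without replicate 5 the obese-mother mean was 269.8 ± 11.9 CPM (SD, n = 4) and the log2 fold change 0.97, and for miR-183-5p these were 49.97 ± 2.40 CPM and 1.52.

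**Figure D1:**
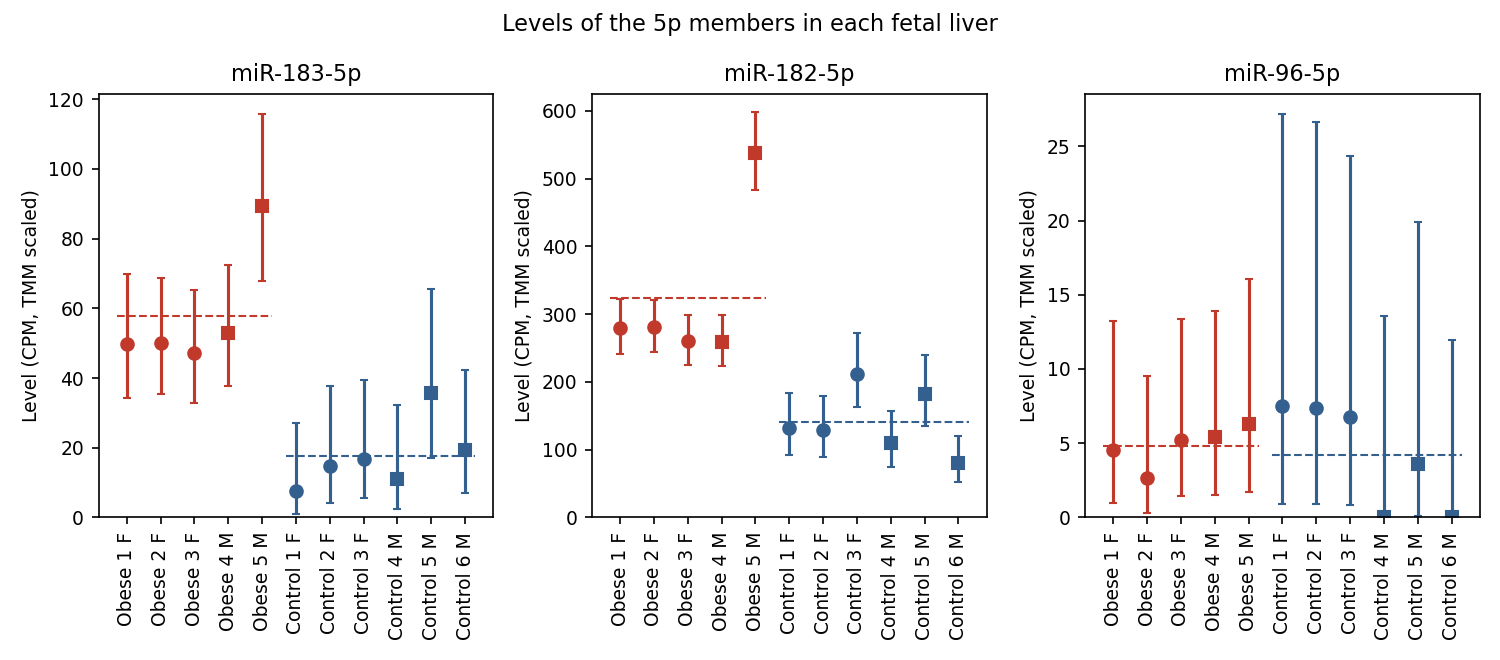
Level of miR-183-5p, miR-182-5p and miR-96-5p (CPM after TMM scaling) in each liver, obese-mother livers in red on the left and control-mother livers in blue on the right; circles are female and squares male fetuses, bars are exact Poisson 95% intervals of the reads and dashed lines group means. The groups do not overlap for miR-183-5p (47.0 CPM or more against 35.7 CPM or less) or miR-182-5p (259 CPM or more against 212 CPM or less), and overlap fully for miR-96-5p.

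Of the 6 arms, 2 passed the expression filter and both were past the threshold as higher in obese-mother livers (edgeR quasi-likelihood test, Benjamini-Hochberg adjusted p under 0.05), where 4.59% of the 218 miRNAs tested were called higher, 6.42% lower and 11% in either direction. The groups did not overlap, with obese-mother livers higher, for 3.21% of the 218, and with them lower for 5.05%. Nothing is read from the count of 2, since the cluster was chosen with it known. In addition, miR-183-5p entered the test through the obese-mother group: 5 of 5 obese-mother libraries but 1 of 6 control-mother libraries reached the filter's 31.3 CPM. Among the 218, miR-183-5p had the largest log2 fold change and miR-182-5p the fourth largest, beside a median of -0.05 over all tested. miR-183-5p lies at the scarce end of the tested range, as the plot of all tested miRNAs shows, and miR-182-5p nearer its middle.

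**Figure D2:**
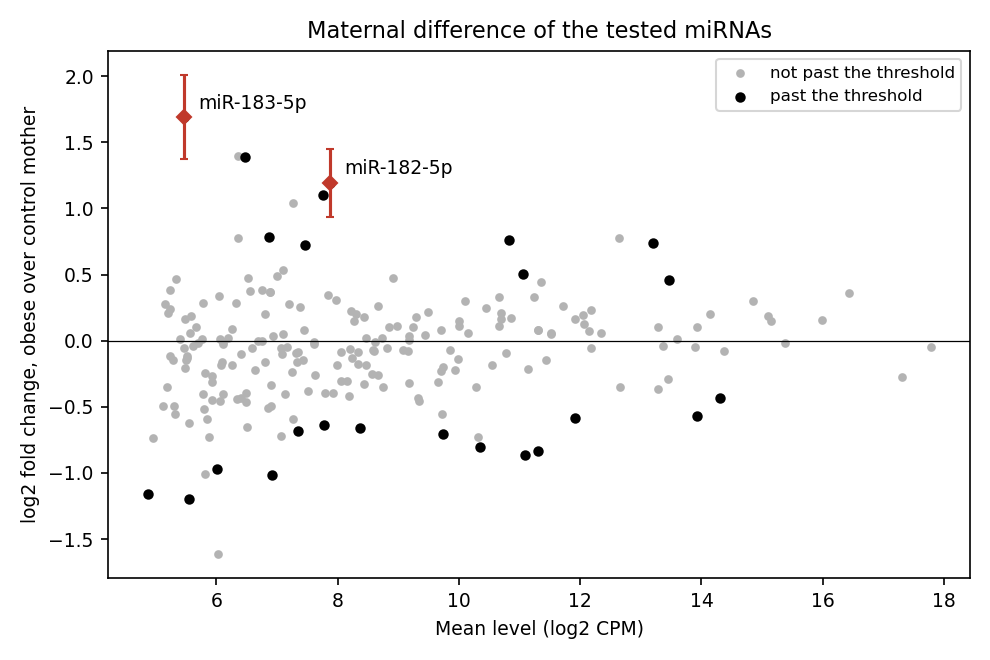
Mean level (log2 CPM) of the 218 tested miRNAs against their log2 fold change, obese over control mother. The 2 tested cluster members are red diamonds with their standard errors, at 1.69 for miR-183-5p and 1.19 for miR-182-5p; other miRNAs past the threshold are black and the rest grey.

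Because the obese-mother libraries were deeper, the reads were also set on 1 depth. At the size of the smallest library, 247288 reads, miR-183-5p would have between 11.9 and 21.3 reads in obese-mother libraries and between 1.79 and 9.43 reads in control-mother libraries. miR-182-5p would have between 61.6 and 128 reads in obese-mother libraries and between 20.7 and 48.7 in control-mother libraries. These are each library's own reads rescaled, so they show how few reads a common depth leaves and are no further evidence of a difference. In 1 random thinning to that size miR-183-5p had 8 to 24 reads in obese-mother libraries and 2 to 9 in control-mother libraries, so the ranges met, and it no longer passed the expression filter. miR-182-5p, with 69 to 119 thinned reads against 17 to 49, kept a log2 fold change of 1.28 and stayed past the threshold. That fit called 19 of the 202 miRNAs it tested, in either direction. The thinned reads are a part of the reads on which the cluster was chosen, so this too is no further evidence of a difference.

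**Figure D3:**
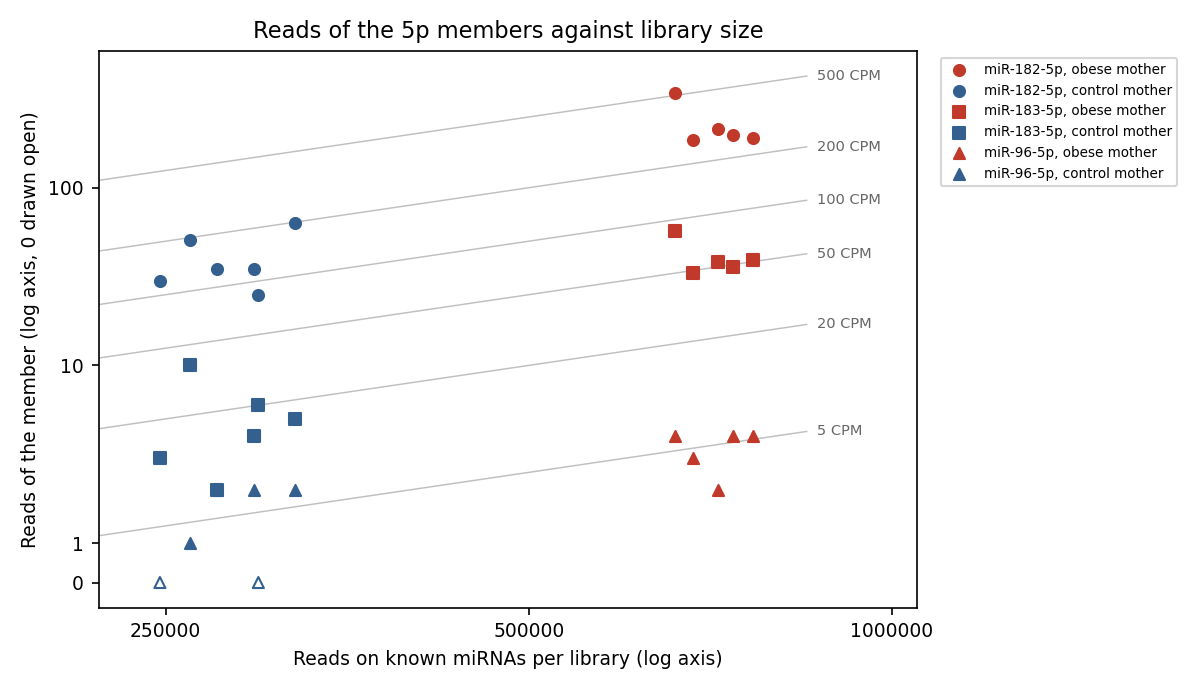
Reads of miR-182-5p (circles), miR-183-5p (squares) and miR-96-5p (triangles) against the reads on known miRNAs of each library, both on log axes, with grey lines of equal CPM before TMM scaling; libraries without a read are open symbols at 0. Control-mother libraries (blue) lie between 247288 and 319919 reads and obese-mother libraries (red) between 660569 and 767137, and in control replicate 1 the symbols of miR-183-5p and miR-96-5p coincide at 2 reads.

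A chi-square over its degrees of freedom, which is near 1 when livers differ by counting error only, was 30.0 for miR-182-5p over the 5 obese-mother livers and 0.39 over the 4 without replicate 5. For miR-183-5p these values were 3.64 and 0.09. In control-mother livers the value was 4.83 for miR-182-5p and 1.51 for miR-183-5p. Replicate 5 was set aside after its values were seen, and separate livers can exceed 1 through differences between animals or through PCR, so these values describe the spread and test nothing.

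miR-96-5p, the member tied to hearing, was too scarce for a close comparison. It had 3, 2, 4, 4 and 4 reads in obese-mother replicates 1 to 5 and 2, 2, 2, 0, 1 and 0 reads in control-mother replicates 1 to 6. The mean level was 4.82 ± 1.37 CPM (SD, n = 5) in obese-mother livers and 4.20 ± 3.56 CPM (SD, n = 6) in control-mother livers. The groups overlapped fully, the control-mother females (6.74 to 7.53 CPM) being the highest livers and 2 control-mother males having no read. The difference did not pass (two-sided exact permutation test over 462 splits, p = 0.706, 0.706 adjusted over 2 exact tests, smallest possible p 0.00216). In edgeR without the expression filter its log2 fold change was 0.27 (SE 0.69, adjusted p = 0.876 over 645 miRNAs, where 2.02% were called higher, 1.55% lower and 3.57% in either direction). For a library with no read, 3 reads would be 9.72 to 11.3 CPM in control-mother libraries, above the level of miR-96-5p in any of the 11 livers.

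The 3p arms, the strands usually discarded, were almost absent. miR-183-3p had 1 read in obese-mother replicate 4 and 0 in the other 10 libraries. miR-182-3p and miR-96-3p had 0 reads in all 11, which allows up to 4.71 CPM per obese-mother library and up to 11.3 CPM per control-mother library at 3 reads. Of the 1370 reads of the miR-182 hairpin 100% were from the 5p arm (Wilson 95% interval 99.7% to 100%), and of the 234 reads of the miR-183 hairpin 99.6% (97.6% to 99.9%). In obese-mother livers the 5p share of miR-183 was 99.5% (97.3% to 99.9%, 204 reads) and in control-mother livers 100% (88.6% to 100%, 30 reads). With 1 read of a 3p arm in all, arm use could not be compared between the groups. These intervals cover counting error only, since reads amplified by PCR are not independent molecules.

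A ratio within a library does not depend on how libraries are scaled. In obese-mother replicates 1 to 5 there were 5.61, 5.61, 5.53, 4.90 and 6.02 reads of miR-182-5p per read of miR-183-5p. In control-mother livers the lowest ratio was 4.17, the median 9.38 and the highest 17.5, with replicates 1 to 4 above every obese-mother liver and replicates 5 and 6 within or below their range. Replicate 5 of the obese-mother group, the liver with the most of both arms, had the highest ratio of its group. With 0.5 added to each read count, the log2 ratio averaged 2.45 ± 0.11 (SD, n = 5) in obese-mother livers and 2.95 ± 0.71 (SD, n = 6) in control-mother livers, and the difference of -0.51 did not pass (two-sided exact permutation test, p = 0.154, 0.307 adjusted over 2 exact tests). Without control replicate 6 the difference was -0.70 (two-sided exact permutation test, p = 0.0397, unadjusted). Of the 11 tests with 1 library left out, only that test had a p under 0.05. The ratio is made from the reads on which the cluster was chosen, so these p-values are a description and nothing is supported with them. Each control-mother ratio rests on few reads: that of replicate 1 had a 95% interval of 4.65 to 65.9. Summed over livers, miR-182-5p made up 83.7% (81.6% to 85.5%) of the cluster's 1352 reads in obese-mother livers and 86.6% (82.1% to 90.1%) of its 276 reads in control-mother livers. miR-183-5p made up 15.0% (13.2% to 17.0%) in obese-mother livers and 10.9% (7.72% to 15.1%) in control-mother livers. These intervals cover counting error of the summed reads only and leave out the spread among livers. Obese-mother replicate 5 alone gave 404 of the 1352 reads.

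**Figure D4:**
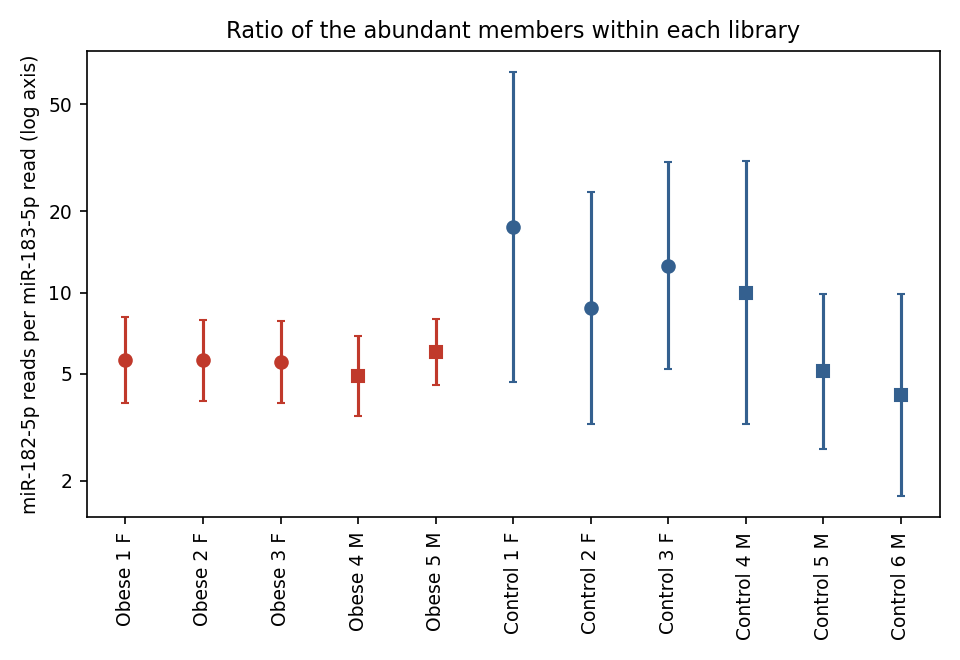
Reads of miR-182-5p per read of miR-183-5p in each library (log axis), obese-mother livers in red on the left and control-mother livers in blue on the right, with Wilson 95% intervals of counting error; circles are female and squares male fetuses. The obese-mother libraries lie between 4.90 and 6.02 and the control-mother libraries between 4.17 and 17.5, with wide intervals.

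By fetal sex, the means of both arms were higher with obese mothers in females and in males. These values come from the reads on which the cluster was chosen, so they and their calls are a description from which nothing is read. In females miR-183-5p averaged 49.0 ± 1.70 CPM with obese mothers and 13.0 ± 4.89 CPM with control mothers (SD, n = 3 each; log2 1.87, SE 0.43), past the threshold that 2.75% of the 218 miRNAs passed as higher and 5.96% in either direction. In males it averaged 71.2 ± 25.9 CPM (n = 2) with obese mothers and 22.1 ± 12.5 CPM (n = 3) with control mothers (log2 1.67, SE 0.41), past the threshold that 1.83% passed as higher, 2.29% as lower and 4.13% in either direction. miR-182-5p averaged 273 ± 11.6 CPM in obese-mother females and 157.7 ± 47.3 CPM in control-mother females (n = 3 each), a log2 fold change of 0.79 (SE 0.33) that was not past the threshold. In males it averaged 399 ± 197 CPM (n = 2) with obese mothers and 124.5 ± 52.0 CPM (n = 3) with control mothers (log2 1.68, SE 0.36), past the threshold. The calls lay near the threshold in both sexes. In females that of miR-183-5p was lost without any 1 of the 6 female livers, with log2 values from 1.62 to 2.09 over the 11 fits that leave out a library. In males, without obese-mother replicate 5 the log2 values were 1.31 for miR-183-5p and 1.11 for miR-182-5p and neither passed. A fit on the 5 males alone gave no call for either arm, with log2 values of 1.70 and 1.71.

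The maternal difference itself was not shown to differ between the sexes. For miR-182-5p the effect in males minus that in females was 0.89 on the log2 scale (95% interval -0.18 to 1.96, edgeR quasi-likelihood test, adjusted p = 0.577), and 0.28 without obese-mother replicate 5. For miR-183-5p it was -0.20 (95% interval -1.53 to 1.12, adjusted p = 0.974 in edgeR). No miRNA of the 218 passed this test (0%), and 14 had an unadjusted p under 0.05 in edgeR. With maternal group in the model, males had a log2 level 0.59 higher than females for miR-183-5p (95% interval -0.00004 to 1.18, edgeR adjusted p = 0.455) and 0.12 higher for miR-182-5p (95% interval -0.45 to 0.69, adjusted p = 0.956). In that comparison too 0% of the 218 passed in edgeR, with 22 at an unadjusted p under 0.05. Without obese-mother replicate 5 the value for miR-182-5p was -0.20.

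**Figure D5:**
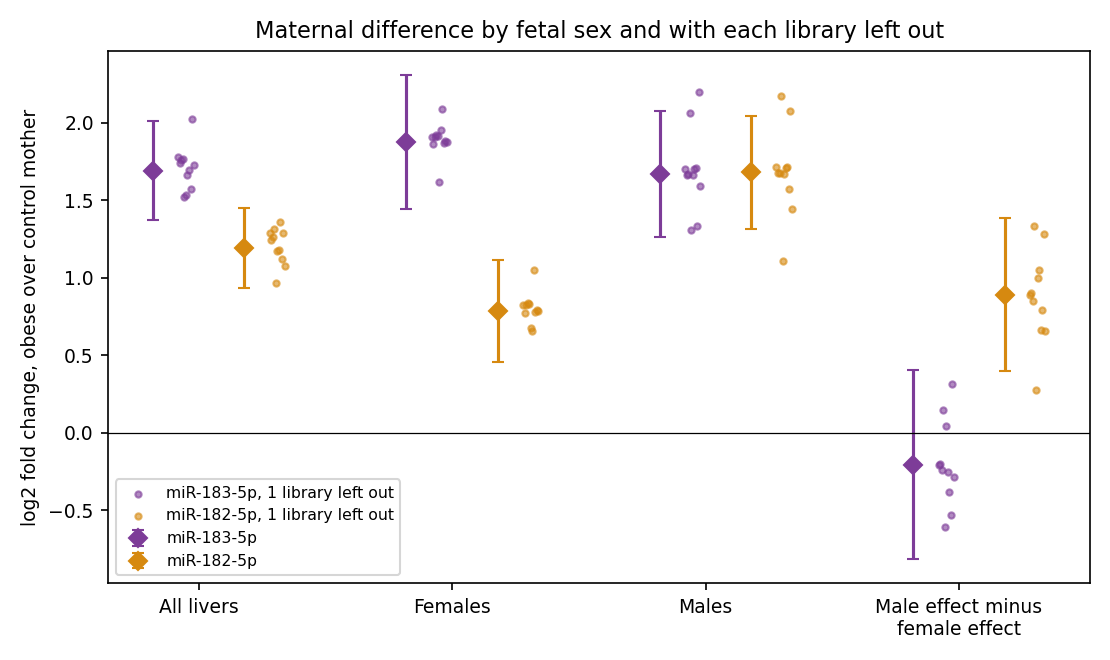
Log2 fold change, obese over control mother, of miR-183-5p (purple) and miR-182-5p (orange) in all livers, in females, in males, and as the male minus the female effect; diamonds carry standard errors and small dots are the fits with 1 library left out. Over all livers the dots run from 1.52 to 2.03 for miR-183-5p and from 0.97 to 1.36 for miR-182-5p, and those for the difference between the sexes cross 0 for miR-183-5p.

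Epithelia and sensory or neural cells carry the cluster elsewhere in the body, and miRNAs typical of such cells were read in the same livers. None of the 4 tested of 7 epithelial and biliary miRNAs passed the maternal comparison (median log2 -0.16, beside -0.05 over all tested). In edgeR 1 of the 4 had an unadjusted p under 0.05, and DESeq2 and limma-voom called 0. The list summed to between 763 and 1347 CPM in obese-mother livers and between 560 and 1471 CPM in control-mother livers, so the groups overlapped, and obese-mother replicate 5 had the lowest sum of its group (763 CPM). miR-141-3p, which belongs to the epithelial miR-200 family, stood at 32.7 to 278 CPM in obese-mother livers and 22.7 to 92.1 CPM in control-mother livers (log2 1.40, edgeR adjusted p = 0.173). In the neural and sensory list the neuron-specific miR-124-3p had 0 reads in all livers, as did miR-9-3p, and miR-9-5p stayed at or under 10.6 CPM. Its sum, 431 to 828.8 CPM in obese-mother livers and 475 to 870 CPM in control-mother livers, was almost all miR-204-5p, a miRNA also found in the eye and the choroid plexus (log2 0.00, edgeR adjusted p = 0.987).

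Of the other lists, miR-375 of endocrine cells summed highest in obese-mother replicate 5 within its group (1598 CPM, log2 0.30 between the groups, edgeR adjusted p = 0.311). Over all 218 tested miRNAs 4.59% were called higher and 6.42% lower, and nothing particular to a list is read from the single calls that follow. Between the groups, 1 of 7 mesenchymal miRNAs (miR-145-3p) and 1 of 2 endothelial arms (miR-126-5p) were higher. miR-145-3p itself stood at 86.8 to 169 CPM in obese-mother livers and 32.1 to 67.8 CPM in control-mother livers. The whole mesenchymal list summed to between 93620 and 140496 CPM in obese-mother livers and between 79120 and 99229 CPM in control-mother livers. The endothelial list summed to 12643 to 17097 CPM and 9476 to 14290 CPM in the same order. Of the 7 mesenchymal miRNAs 3 had an unadjusted p under 0.05 in edgeR, and DESeq2 called 2 and limma-voom 1. Of 5 tested leukocyte miRNAs 1 was lower (miR-146a-5p, list sum 973 to 1262 CPM in obese-mother livers and 1137 to 2037 CPM in control-mother livers), and of 4 erythroid miRNAs none passed in edgeR, DESeq2 or limma-voom or had an unadjusted edgeR p under 0.05 (7302 to 14681 CPM and 7066 to 16724 CPM in the same order). Of the 7 hepatocyte miRNAs 1 was higher (miR-215) and 1 lower (miR-885-5p). The part of these cell types in the cluster's difference was not tested.

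Of the 6 other miRNAs listed as reported to repress FOXO1, 5 were tested and 0 passed in either direction (median log2 0.02). None of the 5 had an unadjusted p under 0.05 in edgeR, and DESeq2 and limma-voom also called 0. The most abundant, miR-27b-3p, stood at 34194 to 42143 CPM in obese-mother livers and 22836 to 39672 CPM in control-mother livers (log2 0.15, edgeR adjusted p = 0.494). miR-27a-3p had a log2 fold change of 0.18 (adjusted p = 0.388 in edgeR). FOXO1 itself was not measured by small RNA sequencing.

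miR-1271-5p, which in humans shares the seed of miR-96-5p but comes from another locus, had 4, 2, 6, 6 and 7 reads in obese-mother replicates 1 to 5. In control-mother replicates 1 to 6 it had 0, 1, 0, 1, 0 and 0 reads. The levels, 2.64 to 10.99 CPM in obese-mother livers and 0 to 3.68 CPM in control-mother livers, overlapped, and without the expression filter its log2 fold change of 2.41 (SE 0.84) did not pass (edgeR adjusted p = 0.119 over 645 miRNAs). The two-sided exact permutation test on CPM gave p = 0.00866, unadjusted and not among the 2 exact tests adjusted above. At 3 reads a control-mother library without a read allows up to 11.3 CPM, above the highest obese-mother level, so the difference rests on very few reads.

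Across the 11 livers the profile most like that of miR-182-5p was that of miR-183-5p (Pearson r = 0.85 on log2 CPM, first of 217 miRNAs), followed by miR-99b-5p (0.82), miR-411-3p (0.81), miR-411-5p (0.78) and miR-100-5p (0.75). Ranked from miR-183-5p, miR-182-5p came 4th, after miR-411-5p (0.88), miR-99b-5p (0.87) and miR-411-3p (0.85). These values carry the difference between the maternal groups, and miR-183-5p, miR-99b-5p, miR-411-3p and miR-411-5p were themselves past the threshold as higher. After each group mean was taken off, miR-183-5p ranked 13th (r = 0.50), and the 5 most alike were miR-26a-5p (0.80), miR-455-3p (0.74), miR-26b-5p (0.73), miR-10a-5p (0.70) and miR-148b-5p (0.65). They are given as a description over 11 libraries, which share depth and scaling with each other, and miR-183-5p had too few reads in control-mother livers for its correlation to be read closely.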

How the data were processed

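Per the labels' protocols, small RNA was extracted with a Qiagen kit and sequenced for 36 cycles (Illumina TruSeq, GAIIx, 12 libraries per lane). The authors deposited read counts, as whole numbers, for each pair of mature miRNA and precursor. Names are those of human miRNAs, and hg18, a human build, is given in the submitters' processing notes, so bases that differ in baboon could lower a count. Aligner and mismatch settings: not given in the sources used here. Each of the 2234 rows is repeated in the table and was used 1 time, and of several precursor rows per name the highest was kept.

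Differences were tested on these counts with edgeR 4.0.16 in R 4.3.3 (quasi-likelihood test, TMM scaling, default expression filter with a minimum count of 10, 218 of 645 miRNAs with reads tested), with Benjamini-Hochberg adjustment over all tested and a threshold of 0.05. Effects within each sex were contrasts of 4 group means (condition by sex), and the sex comparison had condition as a covariate. Exact permutation tests (scipy 1.17.1) used all 462 splits. DESeq2 1.42.0 and limma 3.58.1 were alternatives. The model was also run on counts simulated without a batch, which does not bear on whether maternal group and library batch can be told apart. Members, lists and tests were chosen with earlier results of these data known. Named were all 6 members, the miR-96-5p seed relative, the 5 miRNAs most alike miR-182-5p, and list members needed beside a result. The main fit did not pair the livers by replicate number, and the normalised columns and predicted miRNAs were not used.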

Additional observations from a re-analysis of the deposited data

Results flagged for a closer look

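Replicate 5 of the obese-mother group, a male, stood far above the other 4 livers of its group in both abundant members: 89.5 CPM of miR-183-5p against 47.0 to 52.9 CPM, and 538 CPM of miR-182-5p against 259 to 281 CPM. The gap to the next liver was 0.86 and 0.92 of the group's range, where 0.71 is Dixon's 95% critical value for 5 samples. These were 2 of 10 groups of values looked at, and chance flags about 1 in 20. Both flags are the same liver, for 2 arms of 1 primary transcript, so they are not independent and their number is not set against chance.

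The authors' pooled read count column, which covers libraries beyond these 11, held reads of the 3p arms that the 11 libraries all but lack: 27 of miR-183-3p, 5 of miR-182-3p and 1 of miR-96-3p. It also holds far more reads of the cluster, and the 3p share was small there too. For miR-182 the 5p arm took 99.99% of 58615 pooled reads and 100% of 1370 in the 11 libraries. For miR-96 it took 99.9% of 916 pooled reads and 100% of 24, so few that a 3p share this small could be missed. The 5p arm took 99.7% of 9965 reads of miR-183 in the pooled column and 99.6% of 234 in the 11 libraries.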

How the results depend on the processing

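Over all livers, the calls and signs of miR-183-5p and miR-182-5p held in every fit that could test them. Each fit used the reads on which the cluster was chosen, so the calls were known beforehand. They describe the effect of the processing and are no support for a difference. Log2 values ran from 1.68 to 1.78 for miR-183-5p over 9 alternatives and from 1.06 to 1.28 for miR-182-5p over 10 (scaling, filter, leaving out the most abundant miRNA, DESeq2, limma-voom, sex covariate, summed precursors, thinning and replicate block). With each library left out they ran from 1.52 to 2.03 and from 0.97 to 1.36, with 2 members called each time. After thinning 1 member was called, because miR-183-5p had too few reads to be tested. The calls over all miRNAs, 24 of 218 here, ran from 16 to 29. The number tested ran from 202 to 245 with the expression filter and was 645 without it. The replicate numbers showed no clear pairing of the livers (same-number correlations from -0.16 to 0.30, 1 of 5 best with its own number). That check is too weak to exclude a pairing. With the numbers as a block, which drops control replicate 6, the log2 values were 1.78 for miR-183-5p and 1.06 for miR-182-5p.

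In males the call of miR-183-5p was lost with library totals (1.53) and in males alone (1.70), and that of miR-182-5p in males alone (1.71). With a library left out, male values ran from 1.31 to 2.20 and from 1.11 to 2.17. The call of miR-183-5p held only without control replicate 5, and that of miR-182-5p only without control replicate 5 or obese-mother replicate 4. With 1 obese-mother male left out, the remaining male is assumed to vary like the other groups. In females the call of miR-183-5p (1.62 to 2.09) was lost without any of the 6 female livers, and miR-182-5p (0.66 to 1.05) passed in none. The difference between the sexes ran from -0.61 to 0.32 for miR-183-5p, turning to 0.15, 0.04 and 0.32 without obese-mother replicate 4, control replicate 1 or control replicate 5, and from 0.28 to 1.33 for miR-182-5p. Males against females ran from 0.41 to 0.85 for miR-183-5p and from -0.20 to 0.28 for miR-182-5p.

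The miR-96-5p difference (0.62 CPM) was -0.81 CPM after thinning and ran from -0.22 to 1.28 CPM with a library left out. The log2 ratio difference was -0.39 with a pseudocount of 1 and ran from -0.70 to -0.33 with a library left out. Its unadjusted p in the exact permutation test was under 0.05 only without control replicate 6. The 5p share of miR-183 ran from 99.4% to 100%. The cause of these changes was not tested. Depth limits miR-96-5p, the 3p arms and the control-mother values of miR-183-5p, which rest on 2 to 10 reads.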

Other observations

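The authors' deposited pooled column held 14.0 times the reads of the 11 libraries over all names and a median of 9.99 times over the 218 tested miRNAs, but 42.8 times for miR-182-5p (58610 reads) and 42.7 times for miR-183-5p (9938 reads), ranks 19 and 20 of the 218. miR-96-5p had 915 pooled reads, 38.1 times those of the livers. Which further libraries it covers is not given in the sources used here, so the cluster's higher share there is a value without a group.

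Its composition was close to that of the livers. In the pooled column miR-182-5p made up 84.3%, miR-183-5p 14.3% and miR-96-5p 1.32% of the 69496 reads of the cluster, and in the 11 libraries 84.2%, 14.3% and 1.47% of 1628 reads. There were 5.90 reads of miR-182-5p per read of miR-183-5p in the pooled column and 5.88 in the 11 libraries. The 5p arm took 99.99% of the miR-182 reads, 99.9% of the miR-96 reads and 99.7% of the miR-183 reads in the pooled column.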
